A study of Mus musculus with 6 samples.

Results

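Class 3 semaphorins are secreted guidance proteins, and the genes described here are the 7 of the mouse genome, Sema3a to Sema3g, with the plexin receptors Plxna1, Plxna2 and Plxnd1. The 10 genes were chosen by name, with earlier results of these data known, out of 36889 gene identifiers in the deposited tables. All 10 were among the 19742 genes with enough reads to be tested. The series holds polyA RNA-seq of podocytes, the epithelial cells that form the filtration slits of the kidney glomerulus, from 3 libraries labelled CD2BP2 Knockout (KO) and 3 labelled Wildtype (WT). Both groups have the genetic background C57BL/6. CD2BP2 is a protein of the U5 small nuclear ribonucleoprotein of the spliceosome, and the series is described as one on splicing. The treatment text in the labels speaks of bone marrow macrophages from CD2BP2flox/flox MxCre+ mice aged 6 to 10 weeks and their littermates, given 300 μg poly(I:C), with a loxP site downstream of exon 3 of 7. That text does not name the promoter that drove Cre in podocytes, the age of the animals behind the podocyte libraries, or whether each library came from its own animal. The p-values below therefore measure the spread between these libraries, which may be in part technical.

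A class 3 semaphorin binds a neuropilin, and the neuropilin holds a class A plexin that carries the signal into the cell. Sema3e is the exception, since it binds Plexin-D1 directly. Inside the cell, the plexin's GTPase-activating domain acts on R-Ras and Rap proteins, the protein Rnd1 binds the plexin, and collapsin response mediator proteins pass the signal to the cytoskeleton. Furin-like proprotein convertases cut the secreted ligands and so tune their activity. In the kidney this system is known from podocytes, which secrete several of the ligands, and from the neighbouring endothelium, which carries neuropilins and plexins.

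The libraries held 255554573, 214948912 and 233341997 counts over exonic parts in KO podocytes and 189168456, 186022084 and 231312370 in WT podocytes. An exonic part is an exon, or the piece of one that a given set of transcripts shares, and parts are numbered along the chromosome, so that part 1 of a gene on the minus strand is its 3′ end. Cd2bp2 itself stood at 48.4, 47.3 and 51.0 counts per 1000000 of scaled library size (CPM) in KO podocytes, against 61.0, 61.8 and 60.8 CPM in WT podocytes. It fell by 0.32 on the log2 scale in KO podocytes (SE 0.05, edgeR quasi-likelihood test, adjusted p = 0.0297), and the groups did not overlap, so most of the transcript's reads were still present in the KO libraries. All 12 podocyte markers were detected in every library, with summed levels of 21707 to 23552 CPM in KO and 23856 to 26842 CPM in WT podocytes, and 1 of the 12, the nephrin gene Nphs1, fell. Markers of other renal cells moved too. The median marker for the loop, distal tubule and collecting duct stood 1.16, 2.59 and 0.20 log2 units from the WT mean in KO1, KO2 and KO3, against 0.10, -0.38 and 0.19 in WT1, WT2 and WT3, and 1 of its 13 genes rose. Its summed level was 274 to 1468 CPM in KO and 185 to 348 CPM in WT podocytes. Of 11 macrophage markers, 4 rose, with summed levels of 190 to 206 CPM in KO and 96.5 to 129 CPM in WT podocytes. Of 12 proximal tubule markers, 2 rose, with summed levels of 969 to 1443 CPM in KO and 557 to 1142 CPM in WT podocytes. Of 6 parietal epithelial markers 1 rose and 1 fell, and none of 12 endothelial or 10 mesangial and smooth muscle markers passed the edgeR test. Endothelial markers summed to 7857 to 8273 CPM in KO and 8411 to 9064 CPM in WT libraries. Mesangial and smooth muscle markers summed to 2563 to 3181 CPM in KO and 2744 to 3072 CPM in WT libraries. KO podocytes and WT podocytes therefore name the libraries here, and which cell type a gene's reads came from was not tested. An unadjusted p under 0.05 was found for 6 of the 12 podocyte markers, 10 of the 13 for loop, distal tubule and collecting duct, 7 of the 11 macrophage, 5 of the 12 proximal tubule, 4 of the 6 parietal epithelial, 2 of the 12 endothelial and 0 of the 10 mesangial and smooth muscle markers, and for 22.6% of all genes. The edgeR test at an adjusted p under 0.05 called 3.37% of all genes, 1.62% higher and 1.76% lower in KO podocytes. No marker was at 0 in any library. In bulk samples such as these, fewer cells of a type and less RNA per cell cannot be told apart.

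Of the 10 semaphorin and plexin genes, only Plxna2 passed the edgeR test at an adjusted p under 0.05, and it fell. Over all genes tested, 3.37% passed, with 1.62% higher and 1.76% lower in KO podocytes. An unadjusted p under 0.05 was found for 5 of the 10 genes, Sema3b, Sema3e, Sema3g, Plxna1 and Plxna2, and for 22.6% of all genes. The library values of KO and WT podocytes did not overlap for 4 of the 10, with Sema3b above and Sema3e, Sema3g and Plxna2 below WT, and this was so for 28.9% of all genes. The biggest difference in size belonged to Sema3g, at 0.477 of its WT level, with an adjusted p just above the threshold.

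**Figure D1:**
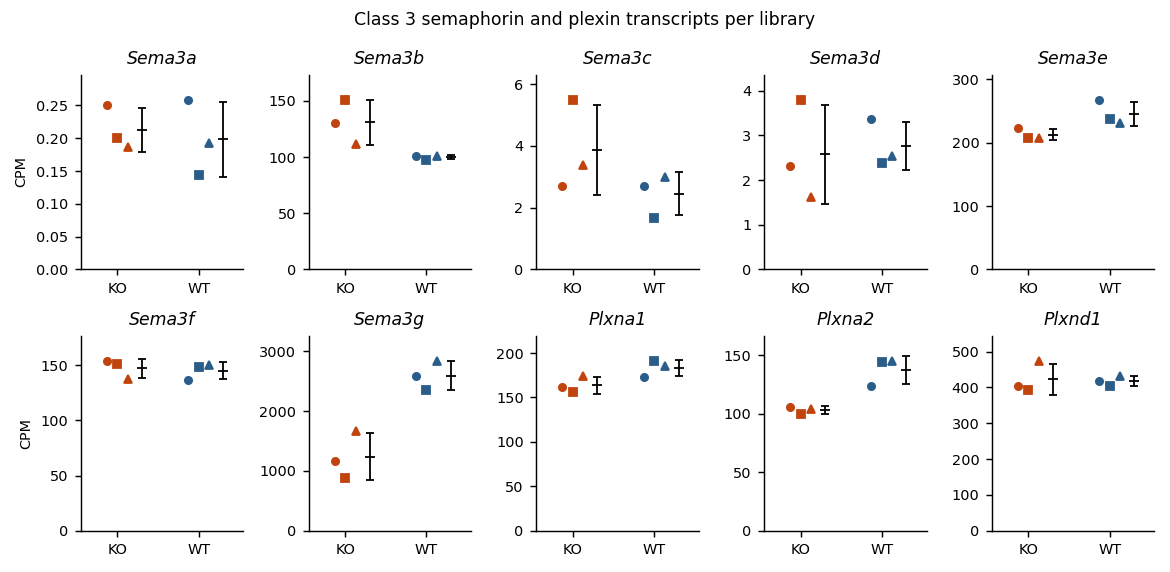
Level of each of the 10 genes in each library, in TMM-scaled CPM on a linear axis that starts at 0 in each panel; points are the 3 KO libraries (left) and the 3 WT libraries (right), with circle, square and triangle for libraries 1, 2 and 3, and bars are means with SD. KO points lie wholly below WT points for Sema3e, Sema3g and Plxna2 and wholly above them for Sema3b, and the groups overlap for the other 6 genes.

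Sema3g (ENSMUSG00000021904, chromosome 14, 32031046 to 32043536, plus strand, build NCBIM37 here and throughout) encodes a secreted semaphorin known from podocytes and from arterial endothelium. It stood at 1166, 883 and 1665 CPM in KO podocytes, against 2592, 2359 and 2833 CPM in WT podocytes. Every KO library lay below every WT library, and the KO libraries also spread more widely, from the lowest, KO2, to the highest, KO3. The means were 1238 ± 396 CPM in KO and 2595 ± 237 CPM in WT podocytes (SD, n = 3 each), a ratio of 0.477. The log2 fold change was -1.07 (SE 0.22), with an edgeR adjusted p of 0.0594, which did not pass. Without KO3 the adjusted p from edgeR was 0.0312, and in the other fits that left out 1 library it ranged up to 0.180. DESeq2 gave an adjusted p of 1.8e-05, in a fit in which 14.0% of all genes passed. KO2, where Sema3g was lowest, was the library with the most tubular marker RNA, and the order of the KO libraries was the reverse of that in the loop, distal tubule and collecting duct markers. The part of tubular RNA in this difference was not tested. The median podocyte marker stood -0.06, -0.22 and -0.23 log2 units from the WT mean in KO1, KO2 and KO3, which is far less than the difference of Sema3g.

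Sema3e (ENSMUSG00000063531, chromosome 5, 14025276 to 14256689, plus strand) encodes the ligand that binds Plexin-D1 without a neuropilin. It stood at 223, 208 and 207 CPM in KO podocytes, against 267, 238 and 231 CPM in WT podocytes. The KO libraries were all lower, by a small margin. The means were 213 ± 9.12 CPM in KO and 246 ± 19.2 CPM in WT podocytes (SD, n = 3 each), with a log2 fold change of -0.21 (SE 0.07) and an edgeR adjusted p of 0.154, so the difference did not pass. Its parts did not all differ between the groups by the same amount, as described with the exonic parts, though the edgeR part-usage test called none of them.

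Sema3b (ENSMUSG00000057969, chromosome 9, 107500005 to 107511560, minus strand), a semaphorin best known as a growth suppressor in tumour cells, was the one gene of the 10 with all KO libraries above all WT libraries. It stood at 130, 151 and 112 CPM in KO podocytes, against 101, 97.6 and 101 CPM in WT podocytes. The WT libraries were nearly equal, while the KO libraries spread widely, with KO2 the highest. The means were 131 ± 19.7 CPM in KO and 99.7 ± 1.83 CPM in WT podocytes (SD, n = 3 each), with a log2 fold change of 0.39 (SE 0.11). The edgeR adjusted p was 0.102, and that of DESeq2 was 0.0121. The KO libraries had the same order in Sema3b as in the loop, distal tubule and collecting duct markers, highest in KO2 and lowest in KO3, and the part of tubular RNA in this difference was not tested. Without KO2 the log2 fold change was 0.27.

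Sema3f (ENSMUSG00000034684, chromosome 9, 107583833 to 107612806, minus strand) lies 72.3 kb from Sema3b and encodes a ligand that acts mainly through neuropilin-2. It stood at 154, 151 and 138 CPM in KO podocytes, against 137, 149 and 150 CPM in WT podocytes. The groups overlapped throughout, with means of 147 ± 8.53 CPM in KO and 145 ± 7.47 CPM in WT podocytes (SD, n = 3 each). The log2 fold change of 0.02 (SE 0.06, edgeR adjusted p = 0.871) did not pass, and its sign changed when KO1, KO2 or WT1 was left out.

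The other 3 ligands were scarce. Together with Sema3e they lie within 4.85 Mb of chromosome 5. Sema3c (ENSMUSG00000028780), which is known for its role in the outflow tract of the heart, stood at 2.69, 5.49 and 3.39 CPM in KO podocytes, against 2.71, 1.66 and 2.99 CPM in WT podocytes. KO2 was the highest library and the groups overlapped, with a log2 fold change of 0.65 (SE 0.33, edgeR adjusted p = 0.296), which was 0.30 without KO2. Sema3d (ENSMUSG00000040254), known from the guidance of neural crest and endothelial cells, stood at 2.31, 3.79 and 1.63 CPM in KO podocytes, against 3.37, 2.38 and 2.54 CPM in WT podocytes. Its groups overlapped as well, with a log2 fold change of -0.10 (SE 0.32, edgeR adjusted p = 0.886).

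Sema3a (ENSMUSG00000028883), the founding member of the class and a ligand of neuropilin-1, was barely detected. Its reads numbered 65, 44 and 45 in KO podocytes and 48, 26 and 44 in WT podocytes. They covered 28.9%, 22.9% and 20.3% of its exonic bases in KO and 24.1%, 15.7% and 21.3% in WT podocytes. The levels of 0.213 ± 0.033 CPM in KO and 0.199 ± 0.057 CPM in WT podocytes (SD, n = 3 each) overlapped (log2 fold change 0.10, SE 0.29, edgeR adjusted p = 0.873). With so few reads, a difference well above that SE could also have gone undetected.

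Among the receptors, Plxna2 (ENSMUSG00000026640, chromosome 1, 196446023 to 196643063, plus strand) fell. It encodes Plexin-A2, a class A plexin that pairs with neuropilins. It stood at 106, 99.5 and 104 CPM in KO podocytes, against 124, 144 and 145 CPM in WT podocytes. All KO libraries were lower than all WT libraries, the KO libraries were close to each other, and WT1 lay nearest to them. The means were 103 ± 3.26 CPM in KO and 138 ± 12.2 CPM in WT podocytes (SD, n = 3 each), a ratio of 0.75. The log2 fold change was -0.42 (SE 0.07, edgeR adjusted p = 0.0429). The call was narrow: in all 6 fits that left out 1 library the log2 fold change stayed between -0.49 and -0.38, while the edgeR adjusted p lay between 0.0531 and 0.171.

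Plxna1 (ENSMUSG00000030084, chromosome 6, 89266310 to 89312607, minus strand) encodes Plexin-A1, the receptor partner of neuropilin-1 for Sema3a. It stood at 162, 156 and 174 CPM in KO podocytes, against 173, 191 and 185 CPM in WT podocytes. KO3 reached just above WT1, so the groups overlapped, and the log2 fold change of -0.16 (SE 0.06, edgeR adjusted p = 0.197) did not pass. Plxnd1 (ENSMUSG00000030123, chromosome 6, 115904829 to 115945023, minus strand) encodes the receptor of Sema3e. It stood at 403, 393 and 473 CPM in KO podocytes, against 419, 403 and 431 CPM in WT podocytes. KO3 stood above the other libraries and the groups overlapped. The log2 fold change was 0.02 (SE 0.08, edgeR adjusted p = 0.918), and without KO3 it was -0.07.

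Levels can be set between genes only per length, here as CPM per kilobase of exonic sequence. On that scale Sema3g led by far, with 273 CPM per kb in KO and 572 CPM per kb in WT podocytes. Plxnd1 followed with 58.8 CPM per kb in KO and 58.0 in WT podocytes, then Sema3f with 42.3 in KO and 41.6 in WT podocytes. Sema3e and Sema3b came next. Sema3e had 28.1 CPM per kb in KO and 32.4 in WT podocytes, and Sema3b had 30.8 in KO and 23.5 in WT podocytes. Plxna1 had 18.1 CPM per kb in KO and 20.3 in WT podocytes, and Plxna2 had 6.83 in KO and 9.11 in WT podocytes. Sema3d, Sema3c and Sema3a were all under 1 CPM per kb in both groups. In KO podocytes the library ranges overlapped between the neighbours Sema3b and Sema3e and between Sema3c and Sema3d, and in WT podocytes only between Sema3d and Sema3c. The order below Sema3g depends on which parts are counted. On the longest exonic part alone, 3 of the 10 genes kept their WT rank, with Sema3g still first and Sema3a still last. Plxnd1 then stood at 18.5 CPM per kb in KO and 18.7 in WT podocytes. A read that spans several parts counts in each, which raises the per-kb level of genes cut into many short parts.

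**Figure D2:**
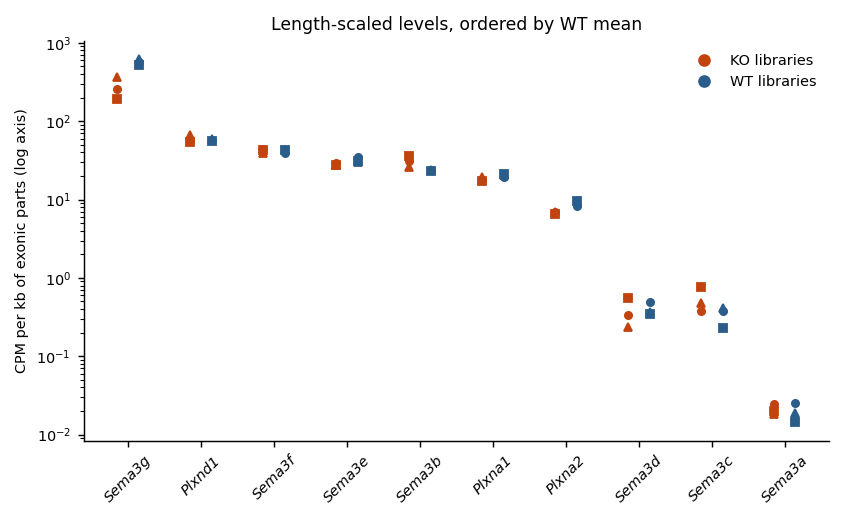
Level of each gene in CPM per kb of exonic sequence on a log axis, with the 3 KO libraries (left of each pair) and the 3 WT libraries as points, genes ordered by their WT mean. Sema3g stands alone at the top with means of 273 (KO) and 572 (WT), and Sema3d, Sema3c and Sema3a lie under 1 in both groups.

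Sema3g made up most of the class 3 signal per kb. The 7 ligands together had 362, 302 and 461 CPM per kb in KO podocytes, against 670, 618 and 722 CPM per kb in WT podocytes. Sema3g held 71.0%, 64.4% and 79.6% of that sum in KO podocytes, against 85.2%, 84.2% and 86.4% in WT podocytes. The groups did not overlap in either quantity. These sums were not tested, since they follow from the values of the members.

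Exonic parts were examined because the protein named in the genotype belongs to the spliceosome. Of the 10 genes' parts, 242 had enough reads to be tested for usage, meaning the share of the gene's reads that falls on a part. None passed the edgeR part-usage test after adjustment, where 0.0627% of all 236061 parts tested did. Without adjustment 7 of the 242 had a p under 0.05, of which 5 belonged to Sema3b and 2 to Sema3e, against 1.16% of all parts. Limma-voom called 1 of the 242, where 0.173% of all parts passed, and a test with the gene total as an offset called 2, where 0.133% of all parts passed. Both called Sema3e part 20, with adjusted p-values of 0.00649 (limma-voom) and 0.00127 (offset), and the second part called with the offset was Sema3b part 30, with an adjusted p of 0.0308.

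The parts of Sema3g moved as one. In all 16 parts the KO libraries lay below the WT libraries, and the log2 ratio of KO over WT ranged from -1.10 to -1.05. Plxna2 was nearly as even: KO lay below WT in 35 of its 37 tested parts, with a median log2 ratio of -0.44 and a range of -0.60 to 0.03. The value of 0.03 belongs to part 5, a stretch of 3676 bases annotated in 1 transcript only and covered at 0.061 CPM per kb in KO and 0.060 in WT podocytes. No part of Sema3f or Plxnd1 had groups that did not overlap, among 19 and 42 tested, nor did any of the 17 tested parts of Sema3d. In Plxna1, KO lay below WT in 14 of 36 parts and the rest overlapped, and in Sema3c KO lay above WT in 2 of 18. None of the 33 parts of Sema3a had enough reads for the test. Over all genes, 24.0% of tested parts had groups that did not overlap. The smallest unadjusted p in the part-usage test was 0.9 for Sema3g (part 1), 0.198 for Plxna2 (part 5), 0.21 for Plxnd1 (part 1), 0.37 for Sema3f (part 19), 0.342 for Plxna1 (part 27), 0.363 for Sema3c (part 23) and 0.166 for Sema3d (part 11).

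**Figure D3:**
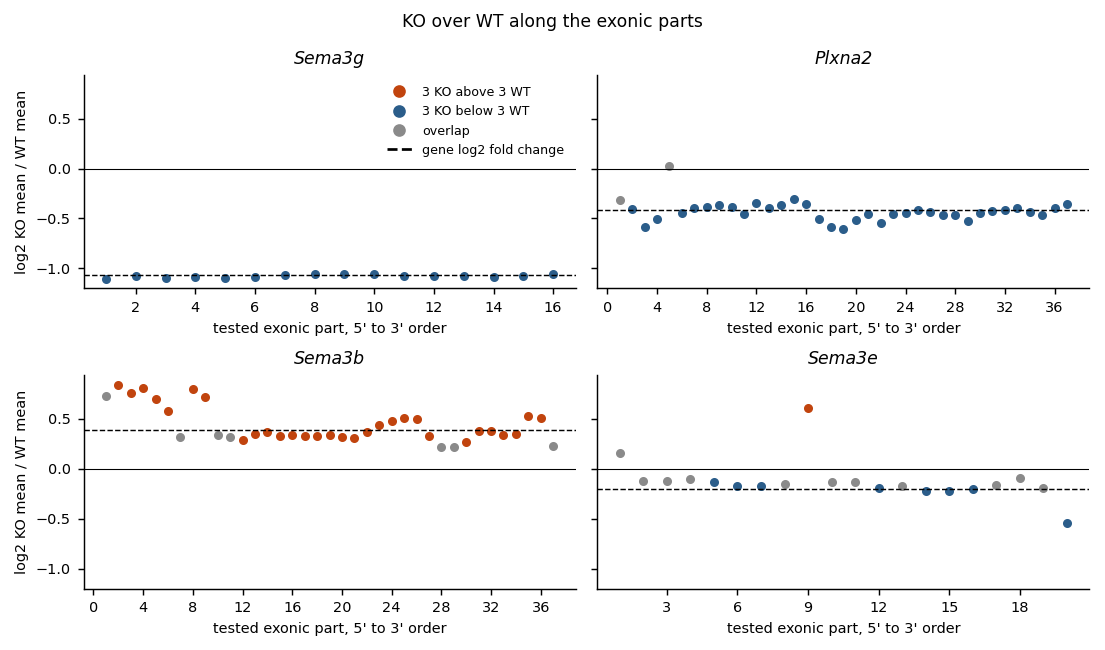
Log2 ratio of KO over WT mean CPM for each tested exonic part, in 5′ to 3′ order along the gene (Sema3b therefore starts at part 37), for Sema3g, Plxna2, Sema3b and Sema3e; colours mark parts whose KO and WT libraries do not overlap, and the dashed line is the gene's own log2 fold change. Sema3g runs flat near -1.08 and Plxna2 near -0.44. Sema3b steps up at its 5′ end, with part 31 at 0.32 as an exception. Sema3e has 1 high part, part 9 at 0.61, and falls to -0.54 at its 3′ end.

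In Sema3e, part 9 had the smallest unadjusted p of its 20 parts (0.00147, adjusted p = 0.811 by edgeR). It spans chr5:14225696-14226415 on the plus strand, 720 bases between exon 7 and exon 8 of the coding transcript, and is annotated only in a transcript of the retained-intron class. The sequences at both ends of this stretch are shown because they carry the splice signals that set it apart from an exon. They are printed from the GENCODE transcript (release M21, GRCm38), located by position in the transcript, with the first and the last bases of the stretch in capitals.
Sema3e exon 7 and the start of the stretch: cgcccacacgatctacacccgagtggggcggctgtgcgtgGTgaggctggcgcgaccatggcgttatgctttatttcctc
Sema3e end of the stretch and exon 8: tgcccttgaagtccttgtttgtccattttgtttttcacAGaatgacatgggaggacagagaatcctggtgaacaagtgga
The stretch opens with GT and closes with AG, the usual ends of a spliced intron, and a run rich in pyrimidines precedes the AG. Read in frame after the 813 coding bases upstream of it, the first stop codon in the stretch starts at its base 316.

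Reads on part 9 numbered 210, 108 and 170 in KO podocytes, against 81, 81 and 98 in WT podocytes, and they covered all of its bases in every library. As a share of the read density on the exons at either side, the stretch stood at 1.89%, 1.26% and 1.80% in KO podocytes, against 0.909%, 1.02% and 1.04% in WT podocytes. All KO libraries lay above all WT libraries, with means of 1.65 ± 0.340% in KO and 0.989 ± 0.0702% in WT podocytes (SD, n = 3 each). A two-sided exact permutation test gave p = 0.1, the smallest that 3 against 3 libraries allow. This share, and the 2 that follow for Sema3e part 20 and Sema3b, were chosen after the part values had been seen.

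The 3′ end of Sema3e went the other way. Part 20 is the distal 2375 bases of the last exon (14254315 to 14256689), all of it 3′ untranslated sequence present in the longer of the annotated ends. It had 5784, 4799 and 4803 reads in KO podocytes, against 6370, 5438 and 6577 in WT podocytes. Its read density as a share of that on part 19, the stretch before it, was 32.4%, 33.5% and 32.1% in KO podocytes, against 40.8%, 41.6% and 42.3% in WT podocytes. The libraries of each group were within a few percent of each other and the groups were well apart, with means of 32.7 ± 0.70% in KO and 41.6 ± 0.717% in WT podocytes (SD, n = 3 each, two-sided exact permutation test, p = 0.1, the smallest possible). In the edgeR part-usage test its log2 fold change was -0.33, and it did not pass after adjustment.

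In Sema3b the uneven parts lay at the 5′ end. Parts 29 to 37 lie upstream of the coding sequence, in 5′ exons that only some of its annotated transcripts use. They held 9.75%, 9.74% and 9.32% of the gene's reads in KO podocytes, against 7.64%, 7.31% and 7.52% in WT podocytes. Every KO library was above every WT library, with means of 9.60 ± 0.247% in KO and 7.49 ± 0.167% in WT podocytes (SD, n = 3 each, two-sided exact permutation test, p = 0.1, the smallest possible). In CPM these parts summed to 12.6 ± 2.15 in KO and 7.47 ± 0.301 in WT podocytes, a ratio of 1.69, while parts 1 to 28 summed to 118 ± 17.5 CPM in KO and 92.2 ± 1.53 CPM in WT podocytes, a ratio of 1.28 (SD, n = 3 each). Part 30, a 5′ untranslated piece, had the smallest unadjusted p of the gene's 37 parts, 0.0095, with an adjusted p of 1.00 by edgeR and by limma-voom, so the edgeR part-usage test called no part of this gene. Inside the block of parts 29 to 37 the groups overlapped in parts 31 and 37. Part 31 had a log2 ratio of 0.32 and a usage log2 fold change of -0.07, and part 37 had 0.73 and 0.34. Part 28, next to this block, is a 5′ untranslated exon of the other 2 annotated transcripts. The groups overlapped in part 28 too, with a log2 ratio of 0.34 and a usage log2 fold change of -0.05. The part of tubular or macrophage RNA in this difference was not tested.

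**Figure D4:**
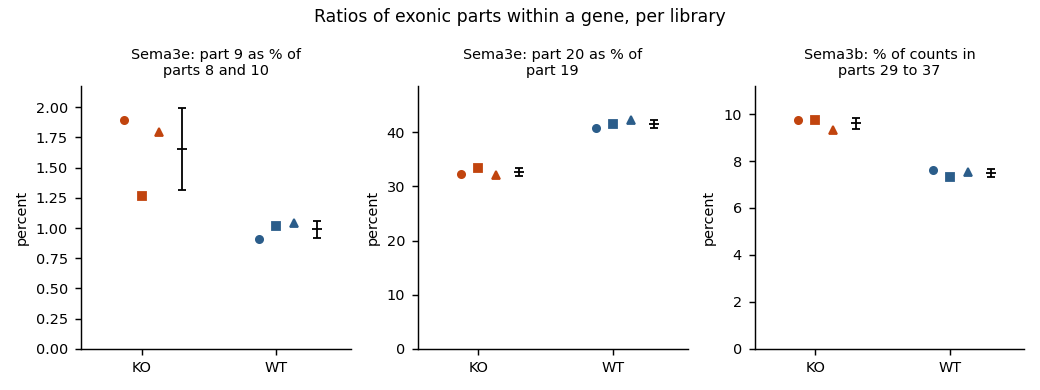
Shares within Sema3e and Sema3b in each library, in percent on axes that start at 0: part 9 density against its flanking exons, part 20 density against part 19, and the share of Sema3b reads on parts 29 to 37. Points are libraries, with KO left of WT, and bars are means with SD; KO lies above WT for part 9 (means of 1.65% in KO and 0.989% in WT) and for Sema3b (9.60% in KO and 7.49% in WT) and below it for part 20 (32.7% in KO and 41.6% in WT), with no overlap.

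The rest of the pathway was read from the same fit in 4 lists that hold 62 genes, all of them tested. Of these 5 passed, 3 higher and 2 lower in KO podocytes, where 1.62% of all genes were higher and 1.76% lower. Among 13 other semaphorins only Sema4a rose. It encodes a membrane-bound semaphorin known from immune cells, and stood at 33.9, 26.3 and 25.5 CPM in KO podocytes, against 17.0, 17.2 and 19.2 CPM in WT podocytes. The groups were well apart, with a log2 fold change of 0.68 (SE 0.12, edgeR adjusted p = 0.0447). The summed macrophage markers were also higher in all KO than in all WT libraries, and their part in this difference was not tested. The median over these 13 genes was -0.09 on the log2 scale, where that of all genes was 0.01. Of the 13, 5 had an unadjusted p under 0.05, as did 22.6% of all genes.

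None of the 12 coreceptors and other plexins passed the edgeR test, and their median log2 fold change was -0.03. Of the 12, 4 had an unadjusted p under 0.05, against 22.6% of all genes. DESeq2 called 17 of the 62 pathway genes in all, 6 higher and 11 lower in KO podocytes, where it called 14.0% of all genes. Nrp1, the coreceptor for Sema3a, is counted in the files jointly with a microRNA gene inside it, and averaged 2017 ± 143 CPM in KO and 1999 ± 147 CPM in WT podocytes (SD, n = 3 each), with overlapping groups (log2 fold change 0.01, SE 0.08, edgeR adjusted p = 0.947). Nrp2, the coreceptor for Sema3f, averaged 79.7 ± 13.8 CPM in KO and 69.1 ± 5.91 CPM in WT podocytes (SD, n = 3 each), also overlapping (log2 difference 0.21, SE 0.13, with an adjusted p from edgeR of 0.41). The smallest p of this list belonged to Plxnb1, a receptor of class 4 semaphorins, at 274 ± 28.4 CPM in KO and 362 ± 9.36 CPM in WT podocytes (SD, n = 3 each). Its groups did not overlap, and its log2 fold change of -0.40 (SE 0.08) had an edgeR adjusted p of 0.0537.

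None of 5 proteases that process semaphorins passed the edgeR test, and their median log2 fold change was -0.19. Of the 5, 1 had an unadjusted p under 0.05, where 22.6% of all genes did. That gene was Pcsk5, a furin-like convertase, at 68.4 ± 2.41 CPM in KO and 94.2 ± 15.9 CPM in WT podocytes (SD, n = 3 each), with a log2 fold change of -0.46 (SE 0.12, edgeR adjusted p = 0.0875).

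Of 32 genes of plexin signalling inside the cell, 2 rose and 2 fell, where 3.37% of all genes passed in either direction. An unadjusted p under 0.05 was found for 10 of the 32 and for 22.6% of all genes, and the median log2 fold change was -0.08. Rnd1, whose protein binds the plexin's cytoplasmic part, stood at 7.36, 7.59 and 8.65 CPM in KO podocytes, against 3.41, 4.36 and 3.88 CPM in WT podocytes. It was thus about as far from WT in size as Sema3g, in the other direction (log2 fold change 1.02, SE 0.13, edgeR adjusted p = 0.0241). The SE of Rnd1 was smaller than that of Sema3g, which was 0.22. Rras, the R-Ras GTPase on which plexins act, rose to 99.6 ± 3.82 CPM in KO podocytes, against 79.1 ± 3.17 CPM in WT podocytes (SD, n = 3 each), a log2 difference of 0.33 with an SE of 0.05 and an adjusted p from edgeR of 0.0342.

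Its relative Rras2 fell to 77.6 ± 4.90 CPM in KO podocytes, against 102 ± 4.90 CPM in WT podocytes (SD, n = 3 each), a log2 difference of -0.39 with an SE of 0.06 and an adjusted p from edgeR of 0.0373. Dpysl5, a collapsin response mediator protein gene, fell at very low levels, with 0.119, 0.0546 and 0.117 CPM in KO podocytes, against 0.468, 0.439 and 0.755 CPM in WT podocytes. Its groups did not overlap (log2 fold change -2.50, SE 0.39, edgeR adjusted p = 0.0338), though these levels rest on few reads. In the 6 fits that left out 1 library each, Rras2 passed in 1 and Sema4a, Rnd1, Rras and Dpysl5 in none. Their edgeR adjusted p-values there ran from 0.0482 (Rras2) to 0.182 (Sema4a).

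**Figure D5:**
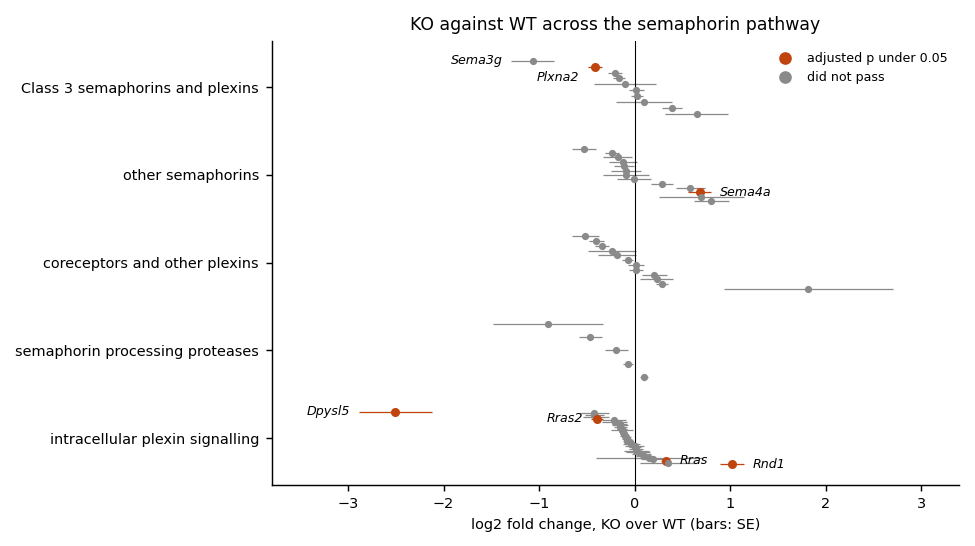
Log2 fold change of KO over WT for the 10 class 3 semaphorin and plexin genes and the 62 other pathway genes by list, with SE as bars and genes with an edgeR adjusted p under 0.05 in colour. The coloured genes are Plxna2, Rras2 and Dpysl5 to the left of 0 and Sema4a, Rras and Rnd1 to the right, while Sema3g at -1.07 is uncoloured.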

How the data were processed

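The labels put polyA RNA-seq libraries of podocytes into KO (n = 3) and WT (n = 3). The authors deposited raw read counts per exonic part for 368092 parts, with the fraction of each part covered, on a flattened Ensembl 67 annotation of build NCBIM37, per the file headers and columns. Alignment software is listed as TopHat 1.4.1 per the submitters' processing notes, which give GRCh37, the name of a human build, beside a deposited annotation that is of the mouse. Neither a counting tool nor its use of strand is given in the sources used here, so reads of overlapping genes on opposite strands, as in parts of Plxna1, cannot be told apart. A read that spans several parts counts in each, which raises short parts and gene sums.

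Part counts were summed per gene and tested with edgeR 4.0.16 (TMM, filterByExpr, quasi-likelihood F test, Benjamini-Hochberg over 19742 genes, threshold 0.05) in R 4.3.3. Part usage was tested with diffSpliceDGE over 236061 parts. Alternatives used DESeq2 1.42.0 and limma 3.58.1, and single ratios used exact permutation tests in SciPy 1.17.1. CPM are counts over the TMM-scaled library size. Over all genes, the SE of the fitted log2 difference had a median of 0.13. Replicates differed by more than sampling noise, with a chi-square per gene of 73.7 to 220. The 10 genes, the pathway lists and the markers were chosen with earlier results of these data known. Named pathway genes are those past the test, Nrp1 and Nrp2, and the smallest p of a list with none; named parts are those past the test and the smallest p of each gene. Of 36 member transcripts, 23 have the same length in GENCODE M21, the source of the printed sequence.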

Additional observations from a re-analysis of the deposited data

How the results depend on the processing

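Over the edgeR fit and 15 alternatives the median log2 fold change of all genes stayed between -0.01 and 0.02. Changed genes numbered 666 in the edgeR fit, 98 without KO3 and WT3, 2766 with DESeq2, 424 on the longest exonic part alone, and 31 (without WT2) to 254 (without WT3) with 1 library left out. Of the 10 genes 1 passed, against 0 without KO3 and WT3, 3 with DESeq2 (Sema3g, Plxna2 and Sema3b) and 0 to 1 with 1 library left out. On the longest exonic part the gene that passed was Sema3e (log2 fold change -0.52, edgeR adjusted p = 0.0299). Its longest part is part 20, the distal 3′ untranslated stretch described above. All Sema3e parts together gave -0.21 (edgeR adjusted p = 0.154). Of the pathway genes 5 passed, against 0 without KO3 and WT3, 17 with DESeq2 and 0 to 3 with 1 library left out. The 3 passed without KO3 and were all lower in KO podocytes, and of the 5 only Rras2 was among them. Member parts that passed numbered 0, against 1 with limma-voom and 2 with the gene total as offset. On the longest part of the gene, or of the longest annotated transcript (a choice made after seeing the data), 3 genes kept their WT rank. The causes were not tested.

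Log2 fold changes changed sign for 5 genes: Sema3a (without KO1 or WT2), Sema3d (without KO3 or WT1, and 0.0856 without KO3 and WT3), Sema3f (without KO1, KO2 or WT1), Plxnd1 (without KO3 or WT2, and -0.0489 without KO3 and WT3) and Plxna2 (0.0466 on its longest part, the sparsely read part 5). With 1 library left out they ranged from -0.0822 to 0.329 (Sema3a), -0.496 to 0.140 (Sema3d), -0.0209 to 0.0638 (Sema3f) and -0.0743 to 0.0593 (Plxnd1). None of these had an adjusted p under 0.05 there. Plxna2 passed in 6 of 15 alternatives, with adjusted p-values from 4.1e-05 to 0.948. Sema3a gave no value with at least 1 CPM required in 3 libraries, nor on its longest part.

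Same-numbered libraries had correlated deviations of 0.107, -0.0601 and 0.158, and not every library correlated best with its own number. Values this weak cannot settle whether the numbers pair the libraries, and the labels do not say. With the replicate number as a block 82 genes passed, 0 of the 10 genes (Plxna2 adjusted p = 0.104), 0 pathway genes and 0 member parts. In that fit Sema3g had a log2 fold change of -1.11 (SE 0.14, edgeR adjusted p = 0.0667).

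Depth limits Sema3a and Dpysl5, the lowest genes named. With 3 libraries a group, an exact test of a single value cannot go below p = 0.1.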
